A study of Mus musculus with 4 samples.

Results

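Gja1, Slc1a2, Ednrb, Ptprz1, Pea15a and Ncan are genes known from radial glia, the neural stem cells whose processes span the embryonic brain wall, and from the astroglia that later arise from them. They were taken by symbol from a list of sites bound by the RNA-binding protein IMP2 (gene Igf2bp2) in mouse brain at embryonic day 14. The list held 761 genes, so 755 others stood beside these 6. The 6 genes carried 20 of its 1828 distinct clusters, which are stretches of transcript covered by overlapping sequenced fragments.

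The material was whole brain of Swiss Webster mouse embryos, with no genetic change and no treatment named in the labels. RNA was joined to protein with ultraviolet light, IMP2 was precipitated with antibodies, and the RNA held on it was sequenced, a method called HITS-CLIP. The labels name a mouse and a rabbit antibody and describe 4 libraries, of which 2 carry the letter R in the title and 2 the letter M, with no explanation of either letter. The authors' single list covers the whole series, so there was no value of a single library, no replicate error and no test between libraries, and no input or control precipitation was analysed here.

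IMP2 and its relatives bind messenger RNA, mostly in the 3' untranslated region (3' UTR), and are known to affect the stability, transport and translation of their targets. Radial glia both generate neurons and guide their migration, and they share many transcripts with astrocytes. The 6 genes cover several jobs of these cells. Gja1 encodes the gap junction protein connexin 43, Slc1a2 the glutamate transporter GLT-1 and Ednrb the endothelin receptor type B. Ptprz1 encodes a receptor-type tyrosine phosphatase that binds pleiotrophin, Pea15a a small astrocyte-enriched phosphoprotein that binds ERK kinases, and Ncan the matrix proteoglycan neurocan. Neurons also make neurocan, and in whole brain a bound transcript does not tell which cell held it. Fewer cells of a type and less RNA per cell cannot be told apart in such samples, nor can transcript level and binding per transcript.

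Each cluster came with a height, the authors' pileup value, taken as the peak count of fragments lying over each other. A second score was read from its short name as a fold of that height, against a level the header does not define. Both are the authors' own values and serve here only to describe and rank clusters. The depth of the libraries is unknown, because no source used here gives their fragment numbers. Heights in the list ran from 18 to 107 with a median of 30, and folds from 2 to 25.5, so weaker sites are not listed. All positions are on mm9, counted from 1.

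All 20 clusters of the 6 genes lay in 3' UTRs (100%, exact Clopper-Pearson 95% interval 83.2 to 100), against 94.1% of all clusters in the list. No cluster of theirs fell in coding sequence or a 5' UTR, and each lay wholly inside its 3' UTR interval. Such intervals for shares cover counting error only, and clusters of the same gene share their transcript. At least 2 clusters were held by 5 of the 6 genes, against 44.9% of listed genes. The 6 genes had a median of 2.5 clusters, whereas the other genes had a median of 1. The choice of these genes was made with the list in view, so these counts are a description and were not tested.

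**Figure D1:**
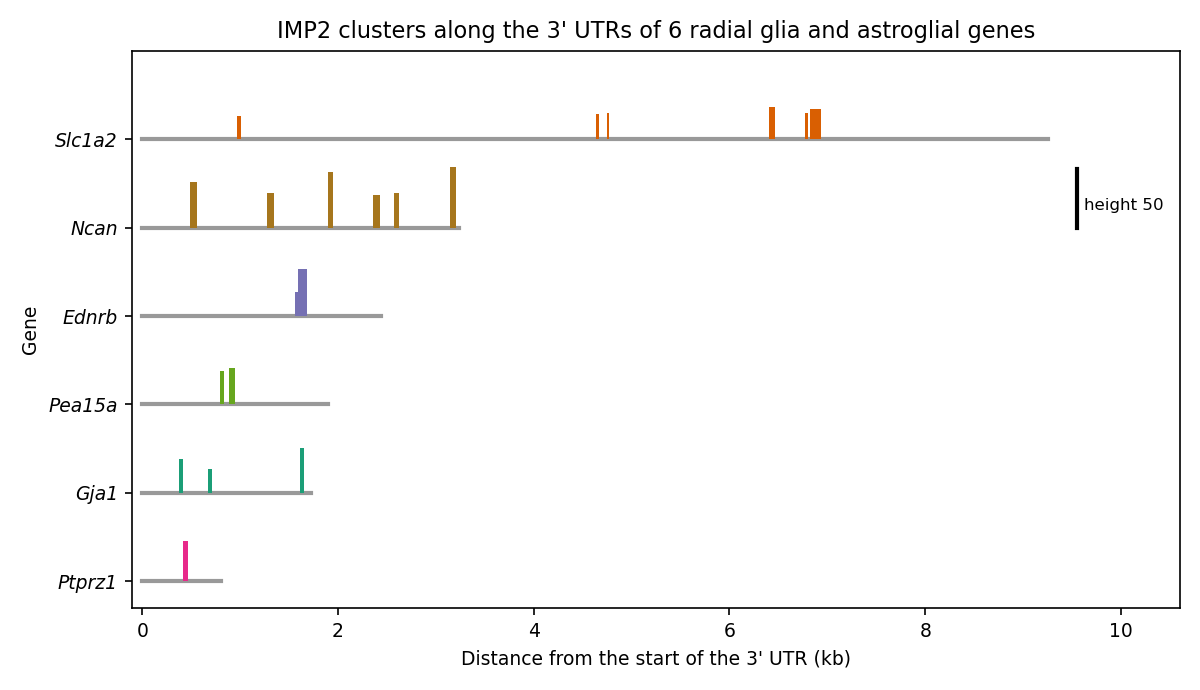
Map of the 20 IMP2 clusters on the 3' UTRs of the 6 genes. The horizontal axis gives the distance from the start of the 3' UTR in kb, grey lines give the length of each 3' UTR, and each bar stands at the midpoint of a cluster with its height to the scale bar. Slc1a2 has 6 low bars spread over 9250 bases, while the end bars of Ncan and Gja1 stand close to the 3' end.

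The transcript of the membrane channel gene Gja1 held 3 clusters in a 3' UTR of 1724 bases (chromosome 10, 56108502 to 56110225, plus strand). The first, at 56108882 to 56108920, had a height of 29 and a fold of 17.1. The second, at 56109173 to 56109216, had a height of 20 and a fold of 11.4. The third, at 56110115 to 56110157, was the tallest with a height of 38 and a fold of 12.9. Their midpoints stood 23.2%, 40.2% and 94.8% of the way along the 3' UTR, counted from the stop codon, so the tallest was the last, and it ended 68 bases before the end of the 3' UTR. In height Gja1 was an ordinary gene of the list: its tallest cluster exceeded that of 67.8% of the other genes, and the other 73 genes with 3 clusters had the same median, 38.

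By fold, Gja1 stood near the top of the list. Its highest fold exceeded that of 98.5% of the other genes and ranked 12 of 761. All 3 of its clusters were high: their folds exceeded those of 99.3%, 96.7% and 98.0% of the clusters of other genes. With the fold read as a ratio of the height, height divided by fold gives the level it was set against. For Gja1 this was 1.70, 1.76 and 2.94, against a median of 5.98 and a lowest value of 1 in the clusters of other genes. Because this level is computed from height and fold, the high folds of Gja1 at ordinary heights give low levels by arithmetic. No source used here says what that level measures.

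Slc1a2, the glutamate transporter gene, had many clusters of little height. Its 6 clusters were all low, with heights from 5' to 3' of 20, 21, 22, 27, 22 and 26, and none exceeded the median height of the list. They lay on the plus strand of chromosome 2 in a 3' UTR of 9250 bases (102621692 to 102630941), the fourth longest among the genes with a 3' UTR cluster. The tallest spanned 102628100 to 102628158 with a fold of 8.37. Only 6.09% of the other genes had more clusters, but the tallest cluster of 67.2% of them was higher. Among the 64 other genes with at least 6 clusters, the tallest cluster ranged from 31 to 106 with a median of 57, so Slc1a2 with 27 lay below all of them. This class was chosen after the values were seen.

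The sites of Slc1a2 were spread unevenly. The first lay alone at 10.7% of the 3' UTR, at 102622665 to 102622703, and the next began 3620 bases further on. The second and the third were 77 bases apart near the middle, at 50.3% and 51.4%. The last 3 stood between 69.6% and 74.4%, with the fifth and sixth 23 bases apart, and the sixth was the widest of all 20 clusters at 107 bases. The remaining 2317 bases up to the 3' end held no listed cluster. Both deposited transcripts of the gene share this 3' UTR. Of the 10 genes with the longest 3' UTRs, Slc1a2 had the second highest number of 3' UTR clusters, after Fzd3 with 25, and the median of the 9 others was 3. Taok1 and Tmod2 came close with 5 each, and Slc1a2 also has 5 once clusters at most 50 bases apart are joined. This class of 10 was not set in advance.

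Ednrb, the endothelin receptor gene, had a pair of clusters that nearly touch, on the minus strand of chromosome 14. The taller one, at 104214597 to 104214689, had a height of 40 and a fold of 7.36. Its neighbour towards the stop codon, at 104214692 to 104214722, had a height of 20 and a fold of 3.70, and only 5.14% of the clusters of other genes were lower than that height. Only 2 bases separated them, at 64.5% and 67.2% of a 3' UTR of 2441 bases, so they may equally be counted as 1 site. Both gave nearly the same level by height over fold, 5.41 and 5.43. The tallest cluster of Ednrb exceeded that of 72.2% of the other genes, and the 139 other genes with 2 clusters had a median of 34.

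Ptprz1, the phosphatase receptor gene, had the shortest 3' UTR of the 6, at 804 bases (chromosome 6, 23002113 to 23002916, plus strand), and a single cluster. It lay at 23002534 to 23002577, 55.1% of the way along, with a height of 34 and a fold of 6.80. The 418 other genes with a single cluster had a median height of 27 with quartiles of 22 and 33, which places Ptprz1 just above the upper quartile. Among all other genes its tallest cluster exceeded 56.3%.

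Pea15a, which encodes the ERK-binding phosphoprotein, had 2 clusters of similar height next to each other on the minus strand of chromosome 1. The one nearer to the stop codon, at 174127922 to 174127959, had a height of 28 and a fold of 3.25. The other, at 174127809 to 174127868, had a height of 31 and a fold of 3.92. They were 53 bases apart near the middle of a 3' UTR of 1897 bases, at 43.0% and 48.4%. The fold of Pea15a was the lowest of the 6 genes, and that of 89.0% of the other genes was higher. Its level by height over fold was 8.62 and 7.91, higher than in 90.4% and 82.6% of the clusters of other genes, and thus at the other end from Gja1.

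Ncan, the neurocan gene, carried the tallest clusters of the 6 genes. Its 6 clusters on the minus strand of chromosome 8 had heights from 5' to 3' of 39, 29, 47, 28, 29 and 51. Tall and lower sites alternated in part: clusters 1, 3 and 6 from the stop codon exceeded the median height of the list and the other 3 did not. The last and tallest, at 72617017 to 72617069, had a fold of 7.82, and it ended 33 bases before the 3' end of a 3' UTR of 3235 bases (72616984 to 72620218). The third, at 72618269 to 72618317, had the highest fold of the gene, 8.39. The first, at 72619660 to 72619726, stood 16.2% of the way along.

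The clusters of Ncan were spaced from 145 to 713 bases apart and covered 10.9% of the 3' UTR, the largest share of the 6 genes. The tallest cluster exceeded that of 87.3% of the other genes. The 18 other genes that also had 6 clusters reached a median of 50.5, so 51 was typical for that number of sites.

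Across genes, those with more clusters had a higher tallest cluster (Pearson r = 0.65 over 729 genes with a 3' UTR cluster, on log2 values). These points share their libraries and the cluster calling. The tallest cluster is also the maximum over all clusters of a gene, so it tends to rise with their number in any case. The tallest height and the number of clusters are therefore not separate descriptions of a gene here. The tallest cluster was above the median height of the list in 5 of the 6 genes, against 53.7% of all listed genes, with Slc1a2 below it. The 6 tallest clusters ranged from 27 to 51 with a median of 36, and those of the other genes had a median of 31 with quartiles of 26 and 41. Counted by cluster, 7 of 20 were above the median height (35%, 95% interval 15.4 to 59.2), against 46.9% of all clusters. The lower share by cluster goes with the 6 low sites of Slc1a2.

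**Figure D2:**
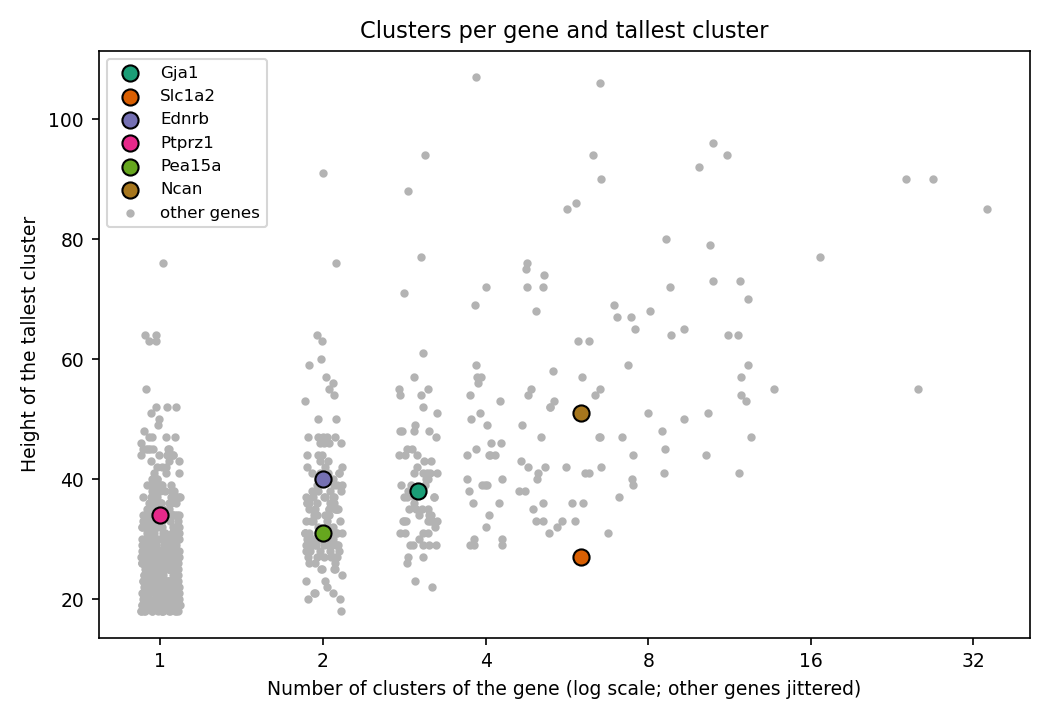
Number of clusters of each gene (horizontal, log scale, other genes spread slightly sideways) and height of its tallest cluster (vertical). Coloured points are the 6 genes and grey points the other 755; Slc1a2 at 6 clusters and height 27 lies below the grey points of its number, and Ncan at 6 and 51 lies among them.

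Height and fold ordered the 6 genes differently. By tallest cluster the order was Ncan (51), Ednrb (40), Gja1 (38), Ptprz1 (34), Pea15a (31) and Slc1a2 (27). By the fold of that cluster it was Gja1 (12.9), Slc1a2 (8.37), Ncan (7.82), Ednrb (7.36), Ptprz1 (6.80) and Pea15a (3.92). With no replicate values, it is not known which neighbours in either order differ beyond their error. Slc1a2 moved from last to second place, and its tallest cluster exceeded 28.1% of the other genes by height and 77.4% by fold. The median fold of the tallest cluster was 7.59 for the 6 genes and 6.37 for the others, whose quartiles were 4.86 and 8.16.

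**Figure D3:**
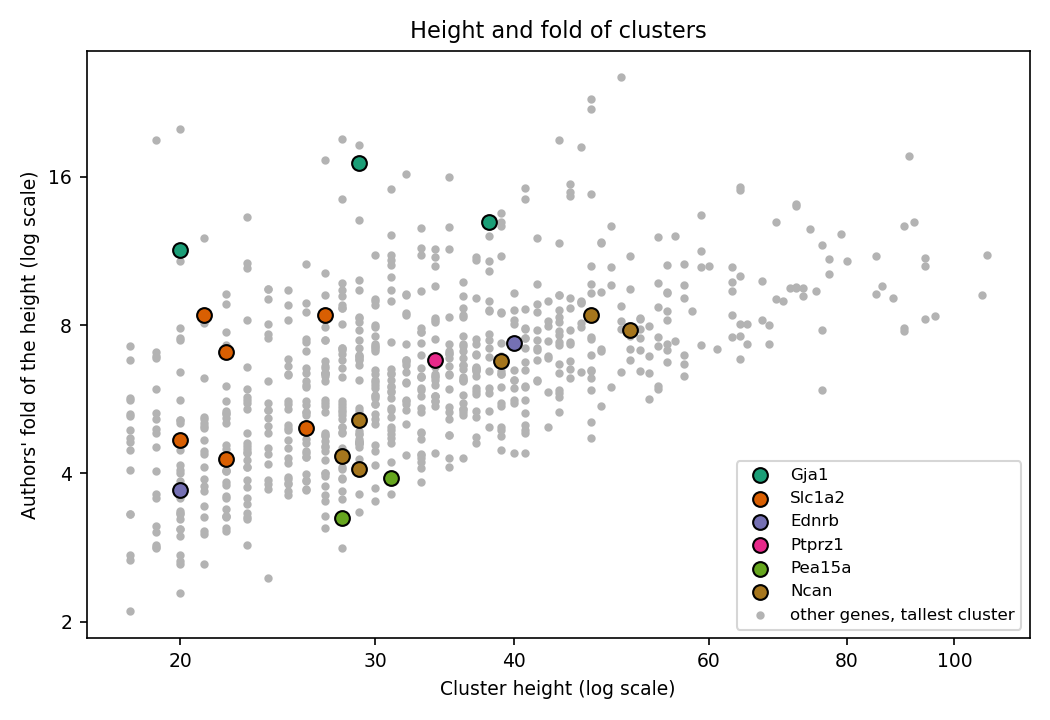
Cluster height (horizontal, log scale) and the authors' fold of the height (vertical, log scale). Coloured points are all 20 clusters of the 6 genes and grey points the tallest cluster of each other gene; the 3 clusters of Gja1 lie along the upper edge and the pair of Pea15a along the lower edge.

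Per length of 3' UTR the 6 genes were spread across the range of the list. Ncan had 1.85 clusters per kb, Gja1 1.74, Ptprz1 1.24, Pea15a 1.05, Ednrb 0.819 and Slc1a2 0.649. The other 723 genes with a 3' UTR cluster had a median of 0.856 per kb with quartiles of 0.475 and 1.75, so 4 of the 6 lay above that median and only Ncan above the upper quartile. The many clusters of Slc1a2 thus went with a low density, while the single one of Ptprz1 in a short 3' UTR gave a density above that of 63.5% of the other genes. Covered shares ran from 3.30% in Slc1a2 to 10.9% in Ncan, and the other genes had a median of 4.67%. The clusters of the 6 genes had a median width of 44 bases, and those of other genes 53.5 bases.

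**Figure D4:**
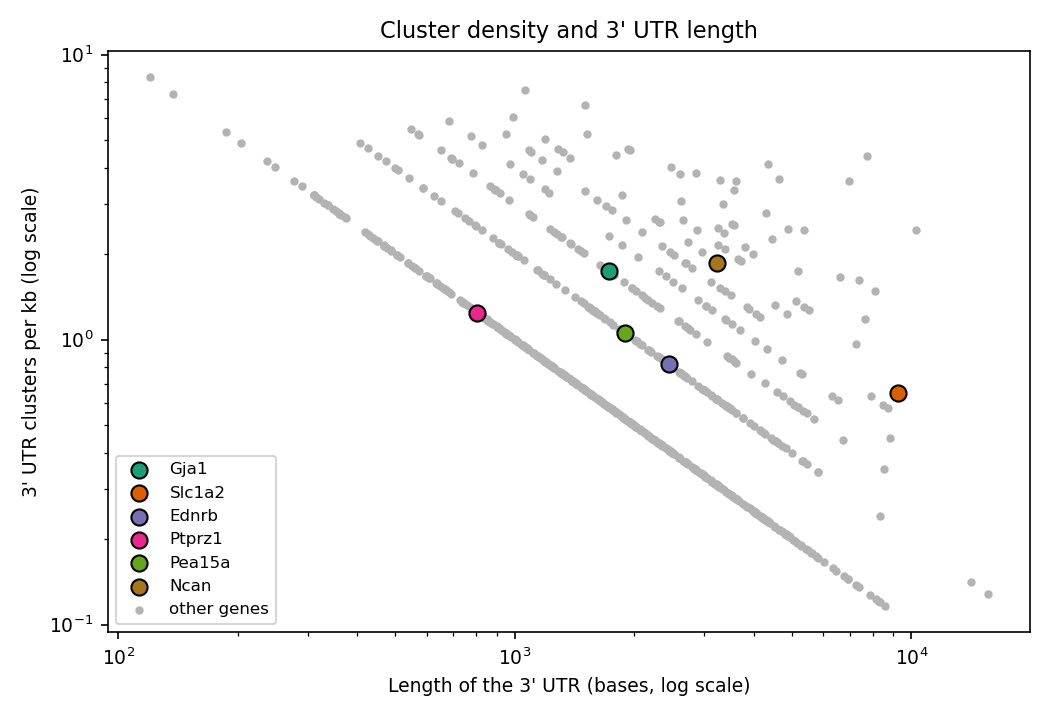
Length of the 3' UTR (horizontal, bases, log scale) and number of 3' UTR clusters per kb (vertical, log scale). Coloured points are the 6 genes and grey points the 723 others with a 3' UTR cluster; the grey diagonals are genes of equal cluster number, and Ncan and Gja1 lie highest of the 6 while Slc1a2 lies lowest at the far right.

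Along the 3' UTR, 13 of the 20 clusters lay nearer to the 3' end than to the stop codon (65%, 95% interval 40.8 to 84.6), against 47.9% of all 3' UTR clusters. The interval contains that share, but it counts clusters of the same gene as separate, and Slc1a2 and Ncan held 6 each. It is not a test. The median position was 57.3% for the 6 genes and 48.1% for the other clusters, and single positions ran from 10.7% to 98.2%. The midpoint closest to the stop codon was that of the first cluster of Gja1, at 399.5 bases. The other clusters came as close as 2 bases, with a lower quartile of 469 bases. The value of 399.5 is the minimum of the 6 genes themselves, and the share of other clusters below it was not counted. In Ncan and Gja1 the tallest cluster had its midpoint within 100 bases of the 3' end, at 59.5 and 89.5 bases. This was the case for 2 of the 6 genes and 5.27% of all genes whose tallest cluster lay in a 3' UTR. The limit of 100 bases was chosen after the values were seen. In the other 4 genes the tallest cluster stood between 361 and 2812.5 bases from the end.

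Clusters at most 50 bases apart occurred in 2 of the 5 members with several clusters, Ednrb and Slc1a2, against 42.1% of all genes with at least 2 clusters. Pea15a, with a gap of 53 bases, lay just outside that limit.

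For each gene, the 2 genes nearest to it in number of clusters, tallest height and 3' UTR length were found among 729 genes by distance over the 3 scaled log2 values. These describe likeness within a single list. Gja1 was nearest to Nkain1 and Mmd, both with 3 clusters, whose tallest were 39 and 41 but whose highest folds were 6.17 and 8.63, below the 17.1 of Gja1. Ednrb was nearest to Kpna3, which matched it almost fully, with 2 clusters, a height of 40 and a 3' UTR of 2445 bases. Camsap2 came next with a height of 42. Pea15a was nearest to Scrt2 (height 30) and Robo1 (31), and Ptprz1 to 1110004F10Rik (35) and Rcn2 (32). Ncan was nearest to Slc38a2 (55) and Caprin1 (54), with 6 and 5 clusters. Slc1a2 had the most distant neighbours, Soga1 and Zfp871, with 5 and 4 clusters and heights of 31 and 29.

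The genes of relatives and partners of the 6 proteins were also looked up in the list. Of 20 connexin genes only Gja1 had a cluster, of 7 SLC1 transporter genes only Slc1a2, and of 7 endothelin system genes only Ednrb. Among 12 lecticans, link proteins and tenascins Ncan was alone. Of the 10 ligands and partners of Ptprz1, the adhesion genes Ncam1 (height 73, 12 clusters) and Nfasc (33, 1 cluster) were listed, and the ligand genes Ptn and Mdk were not. In all, 3 of 57 family genes other than the 6 were listed, beside 3.47% of all 21900 protein-coding genes. So small a count does not set the family genes apart from protein-coding genes in general. Clusters above the median height were held by 2 of these 57, Ncam1 and Nfasc, against 1.87% of protein-coding genes.

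Among 54 further markers of radial glia and astroglia, 9 had a cluster, against 3.47% of protein-coding genes. Of radial glia, these were Ccnd2 (77, 17 clusters), a cyclin of progenitors, the glutamine synthetase gene Glul (63, 2 clusters), Zfp36l1 (38), which binds AU-rich elements, and the intermediate filament gene Vim (27). Of astroglia, they included the carboxypeptidase gene Cpe (57, 3 clusters), the transcription factor gene Nfia (51, 10 clusters), Sparcl1 (29) and the FGF receptor gene Fgfr2 (26). Several of these are also expressed in neurons. The defining radial glia genes Fabp7, Slc1a3, Nes and Sox2 and the astrocyte genes Gfap, Aqp4, S100b and Aldh1l1 had no listed cluster. With the 6 genes included, 15 of 60 were listed (25%, 95% interval 14.7 to 37.9), a share raised by the choice of the 6. Of the 54 without them, 4 had 2 clusters or more, against 1.56% of protein-coding genes. All marker lists, the neuronal one included, were chosen with earlier results of these data known, which can raise these shares too. The protein-coding genes beside them were not limited to genes expressed in embryonic brain. The shares are a description and were not tested.

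Within these chosen lists, a larger share of the neuronal markers was listed, and their median tallest cluster was higher. Of 20 neuronal markers 13 had a cluster, against 3.47% of protein-coding genes. The median tallest height was 43 for these 13, 33.5 for the 8 listed astroglial markers and 38 for the 7 of radial glia. The glial medians include the 6 genes, and the neuronal list was also chosen with earlier results of these data known. These differences were not tested. Of other cells, 3 of 8 meningeal, 3 of 8 erythroid, 1 of 10 endothelial or pericyte and 1 of 6 choroid plexus markers were listed. These small counts also stand beside 3.47% of protein-coding genes. The erythroid genes Hba-a1 and Hba-a2 had the same height (27) and fold (6.39). In the list 1 cluster was shared by more than 1 gene, so theirs may be a single cluster counted for both. None of 9 markers of intermediate progenitors was (95% upper limit 33.6%), and none of 10 for oligodendrocytes or of 10 for microglia and macrophages (30.8% each).

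**Figure D5:**
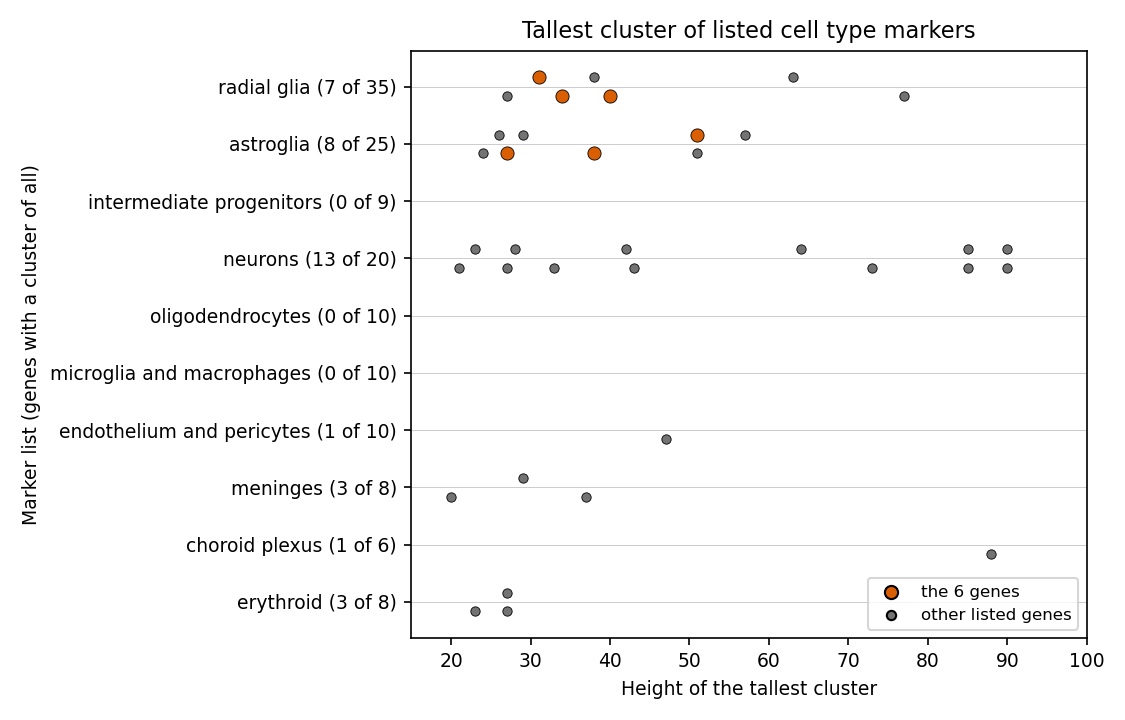
Height of the tallest cluster (horizontal) of each listed gene in 10 lists of cell type markers (vertical, with the number listed of all genes in the list). Orange points are the 6 genes and grey points the other listed markers; the 6 genes lie between 27 and 51, and the tallest neuronal markers reach 90.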

How the data were processed

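The deposited table is 1 list of IMP2 clusters, which the authors had annotated to RefSeq mRNA. Per the submitters' processing notes, FastQC, Bowtie and mm9 were used (no versions named). How peaks were called, at which threshold and whether the 4 libraries were pooled remains not given in the sources used here. Per the file headers, the height of a cluster is a signal value and the second score a fold, a ratio of that height. The 2865 lines, 1 for each cluster and transcript, were reduced to 1828 clusters by chromosome, start, end and strand with Python 3.11.15 and pandas 2.3.3. Regions and positions were taken at the cluster midpoint in the longest deposited 3' UTR interval of the gene. Of 761 symbols, 55 were updated through a RefSeq table of GRCm38.p6, from which no coordinate was used. No test was run. The functions were tested on simulated clusters. The members and gene lists were chosen with earlier results of these data known. Named genes were the 6 members, the listed genes of the lists and the 2 nearest genes of each member; others are said to be chosen after seeing values, and some listed genes are counted but not reported here. Cluster sequences are not shown, since no mm9 genome was used here. Alternatives were other cluster, region, length and level rules.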

Additional observations from a re-analysis of the deposited data

How the results depend on the processing

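Of the 18 alternatives tried for the results over all 6 genes or whole lists, 16 gave a value within 1.5 times the reported one. Some of the 16 could hardly move a value, so their number says little about robustness. The shortest 3' UTR interval equalled the longest in the 6 genes except Ednrb (2440 against 2441 bases). Matching genes by accession again gave 20 clusters. With only clusters above the median height, the 20 clusters fell to 7, and with at least 2 clusters required, 9 in place of 15 radial glia and astroglial genes were listed; both rules remove clusters or genes by construction. Joining clusters at most 50 bases apart left 18, and 100 bases, chosen after seeing the data, left 16. For single genes, 12 of 48 alternatives moved a value by more than 1.5 times. Slc1a2 had no cluster above the median height, and its tallest cluster exceeded 28.1% of other genes, against 15.5% by mean height, 85.8% by summed height and 77.4% by fold. Pea15a exceeded 46.5% by height but 10.9% by fold. Ednrb had 1 cluster once neighbours were joined, and Pea15a 1 when joined at 100 bases. No paired analysis was possible because no column holds values of a single library, and no library could be left out for the same reason. Depth is unknown, so a gene without a cluster is only not listed at the authors' threshold.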

Other observations

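Folds of the tallest cluster differed widely within the marker lists and overlapped between them. The listed astroglial markers other than the 6 genes had folds of 6.68 to 10.7, those of radial glia 3.10 to 10.2 and the 13 neuronal markers 3.46 to 11.1, all below the 12.9 of Gja1. Higher folds were found at the pericyte gene Rgs5 (height 47, fold 23.1) and at 2 of the 3 listed meningeal markers, Col3a1 (29, 18.6) and Col1a1 (20, 20), but not at the third, Zic1 (37, 5.35). These genes were named after their values were seen, and no difference between lists was tested.

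Ncam1, an adhesion gene and a partner of Ptprz1, resembled Ncan in the place of its tallest cluster. Its midpoint lay 58.5 bases from the 3' end of a 3' UTR of 3297 bases. In Nfasc, the other listed partner, that distance was 149.5 bases. Among all genes whose tallest cluster lay in a 3' UTR, 5.27% had its midpoint within 100 bases of the end. The likeness was named after the values were seen. The tallest cluster of Nfia lay at the other end, at 0.831% of its 3' UTR.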
